A study of Mus musculus with 12 samples.

Results

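Livers of mice labelled as lacking thrombospondin-1 (TSP1, gene Thbs1) in macrophages were compared with livers of mice carrying only the floxed TSP1 gene, all on the diet labelled HF. The members are the 3 libraries titled as HF macrophage TSP1 -/- and the 3 titled as HF TSP1flox, 6 of the 12 libraries of the series. All mice were of strain 129/B6 and 10 months of age, and had eaten the diet for 8 months. The floxed groups are given as WT in the genotype field of the labels. The other 6 libraries, 3 floxed and 3 knockout on the diet labelled LF, enter the fit for the spread and the comparison of the genotype between diets. The composition of the LF and HF diets and the Cre that deletes TSP1 are not given in the labels.

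Thrombospondin-1 is a large secreted glycoprotein of platelets, macrophages and stromal cells. It binds the scavenger receptor CD36, the integrin-associated protein CD47 and several integrins, and it can release TGF-beta from its latent complex. Macrophages of the liver, the resident Kupffer cells and the monocyte-derived cells that join them in a fatty liver, signal to hepatocytes through cytokines such as IL-1 and IL-6. Hepatocytes answer IL-6 through STAT3 with the acute phase proteins, a group of secreted defence and clotting proteins. Whole liver RNA comes mainly from hepatocytes, and in such bulk tissue fewer cells of a type and less RNA per cell cannot be told apart. The labels do not say which library came from which animal, so the p-values measure only the spread between these samples.

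No gene passed the test across all genes. Of 12587 genes tested with edgeR's quasi-likelihood test, 0 were called at a false discovery rate of 5% (percent called 0), and the smallest adjusted p was 0.157. At an unadjusted p under 0.05 the test gave 578 genes higher in the knockout libraries (4.59%) and 385 lower (3.06%). DESeq2, run on the same counts, called 43 genes higher (0.342%) and 26 lower (0.207%). In 59 of these 69 the 3 values of one group all lay above the 3 of the other. The 69 were called on these same libraries, so this count gives no support to the calls. In 22 of the 69, knockout replicate 2 was the highest HF library. As edgeR called 0 genes, all genes named below are described by their levels, and every direction rests on the genotype as labelled. Levels are FPKM (fragments scaled to gene length and library depth, as deposited) for replicates 1, 2 and 3 of a group in that order. Differences are log2 fold changes of knockout over floxed from edgeR with their standard errors (SE). A group is said not to overlap the other when its 3 values all lie on one side. Of all genes tested, 6725 (53.4%) had a log2 difference above 0 and 5862 (46.6%) one below 0, and 1174 (9.33%) did not overlap in FPKM, with 283 higher (2.25%) and 891 lower (7.08%). On counts scaled by TMM factors, 1272 genes (10.1%) did not overlap, with 598 higher (4.75%) and 674 lower (5.35%), so the size of this split depends on the scaling.

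The 6 HF libraries held 16154661 to 16519664 estimated counts each. HF floxed replicates 1 and 2 were much alike (chi-square per degree of freedom 8.41, against 189.29 and 190.09 for their distance to replicate 3), though they differed by more than sampling noise. LF knockout replicates 2 and 3 were closer still (2.75), and whether either pair shares an animal or pooled RNA is not given. The HF knockout libraries were the most spread of the 4 groups, with a biological coefficient of variation of 52.8% against 26.5% in HF floxed, 28.2% in LF floxed and 23.3% in LF knockout. On TMM-scaled log2 CPM over all genes tested, knockout replicate 2 lay more than 4-fold above the 5 other libraries in 171 genes and more than 4-fold below them in 221. Knockout replicate 1 did so in 18 and 67 genes, and replicate 3 in 9 and 8. The floxed libraries did so in 0 to 3 genes above and 3 to 12 below. Many list medians depended on 1 library, and the main such values are given beside the lists below.

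**Figure D1:**
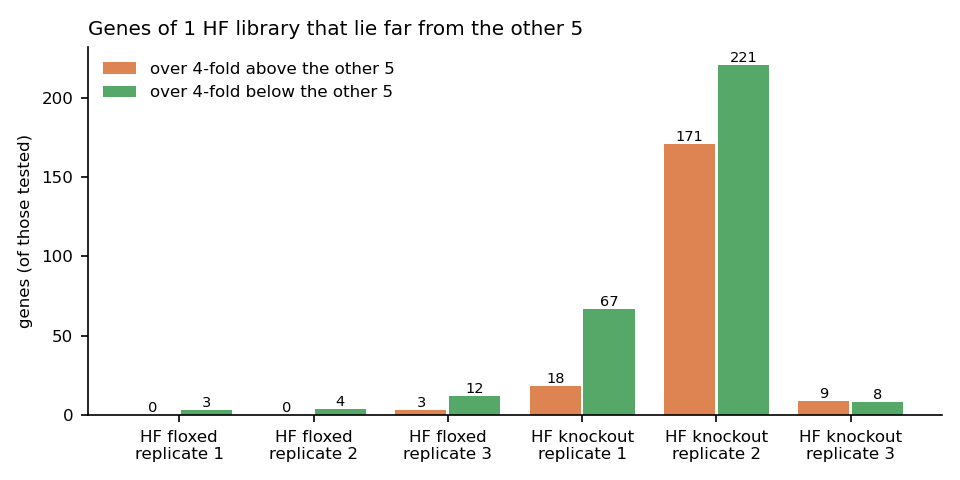
Bars give, for each of the 6 HF libraries, the number of genes more than 4-fold above or below the 5 other HF libraries, on a linear axis from 0. Knockout replicate 2 has 171 genes above and 221 below, the most of the 6.

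The targeted gene was not lower in the knockout libraries. Thbs1 stood at 0.75, 0.75 and 0.31 FPKM in the floxed livers and at 0.16, 1.42 and 1.63 FPKM in the knockout livers. The knockout group thus held both the lowest and the highest value, and the groups overlapped (log2 difference 0.95, SE 0.73, edgeR adjusted p = 0.78). A two-sided exact permutation test on log2(FPKM + 1) gave p = 0.6 with n = 3 and 3, where 0.1 is the smallest p possible. The exon removed by the Cre is not given in the labels, so a count over the whole gene does not have to show it, and cells other than macrophages transcribe Thbs1 too. Lyz2, the lysozyme gene of macrophages and neutrophils, stood at 60.25, 61.18 and 34.86 FPKM in the floxed livers and at 25.47, 15.30 and 1.35 FPKM in the knockout livers. All 3 knockout values were below all 3 floxed values, and replicate 3 was the lowest by far (log2 difference -1.62, SE 0.80, edgeR adjusted p = 0.684), and the exact permutation p was 0.1. Macrophage deletions are often made with a Cre placed in Lyz2, which is also active in neutrophils; whether that applies here is not given, and its part in the Lyz2 values was not tested. The near-identical copy Lyz1 showed the same order, at 4.48, 3.46 and 3.41 against 2.67, 2.27 and 0.45 FPKM, and reads may be split between the copies.

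Other macrophage genes differed in direction. Marco, a scavenger receptor, was at 0.82, 0.45 and 2.35 FPKM in floxed and 23.98, 0.06 and 48.06 FPKM in knockout livers. Vsig4, a complement receptor, was at 4.12, 4.02 and 6.52 against 19.25, 3.73 and 37.02 FPKM, and Clec4f, a lectin of Kupffer cells, at 22.03, 21.22 and 14.07 against 29.28, 10.84 and 41.60 FPKM. All 3 genes overlapped: knockout replicate 3, the library with the least Lyz2, was the highest of the 6 livers, and knockout replicate 2 the lowest. Of 19 tested Kupffer cell markers, 16 were higher and 3 lower in the knockout group, with a median log2 difference of 0.58 beside 0.03 over all genes, or 0.25 without knockout replicate 3 and 0.33 without floxed replicate 3. The summed FPKM of the Kupffer cell markers was 338 to 656 in the floxed libraries and 322 to 930 in the knockout libraries, so the ranges overlapped. The markers of monocytes and lipid-associated macrophages gave 13 higher and 9 lower of 22, with sums of 101 to 310 against 120 to 1220 FPKM. Their median of 0.37 became -0.38 without knockout replicate 3, 0.03 without knockout replicate 2 and -0.02 without floxed replicate 3. Gpnmb, a glycoprotein of lipid-laden macrophages, stood at 5.70, 4.39 and 1.47 FPKM in floxed and 0.15, 0.99 and 1.27 FPKM in knockout livers. For Gpnmb there was no overlap, and knockout replicate 1 was the lowest (log2 difference -2.18).

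Of 14 tested genes for TSP1, its relatives, receptors and partners, 12 were higher and 2 lower, with a median log2 difference of 0.32 beside 0.03 over all genes, and in none of them were the groups apart in FPKM. The median was 0.20, with 9 higher and 5 lower, without knockout replicate 2, and 0.18 without floxed replicate 1. Cd36, the fatty acid and TSP1 receptor, was at 59.12, 68.27 and 24.81 FPKM in floxed and 4.51, 16.65 and 53.76 FPKM in knockout livers. Cd47, the receptor that also carries the do-not-eat-me signal, was at 11.02, 14.69 and 15.01 against 13.04, 18.20 and 15.65 FPKM. Both genes overlapped between the groups, Cd36 with a wide spread and Cd47 with a narrow one. The 23 tested TGF-beta ligands, receptors and targets gave 14 higher and 9 lower with a median of 0.04 by edgeR and -0.07 by limma on log2(FPKM + 1). Without knockout replicate 1 this list gave 18 higher and 5 lower with a median of 0.36, and without knockout replicate 2 it gave 8 higher and 15 lower with a median of -0.01. Leaving out floxed replicates 1, 2 or 3 gave medians of 0.15, 0.20 and -0.04. Smpdl3b, a sphingomyelin phosphodiesterase-like protein that dampens TLR4 signalling, stood at 0.52, 0.26 and 0.13 FPKM in floxed and 1.26, 2.12 and 1.64 FPKM in knockout livers. All 3 knockout values were higher, at a low level throughout (log2 difference 2.57, SE 0.83, edgeR adjusted p = 0.598), and the exact permutation p was 0.1. The rest of the sphingolipid enzymes did not share this: the list gave 14 higher and 12 lower of 26, with a median of 0.07, or -0.13 by limma on log2(FPKM + 1), where the median over all genes was -0.11. The TLR4 complex and its NF-kB feedback genes gave 19 higher and 5 lower of 24 with a median of 0.23; for Tlr4 itself the values were 0.36, 0.37 and 0.22 against 0.12, 0.22 and 0.56 FPKM.

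Most acute phase proteins were higher in the knockout livers. Of 32 tested members 28 were higher and 4 lower, with a median log2 difference of 1.15 beside 0.03 over all genes. An unadjusted p under 0.05 was reached by 20 in the higher direction and by 1 in the lower, against 4.59% and 3.06% of all genes. The groups did not overlap in FPKM for 15 higher members and 1 lower member, against 2.25% and 7.08% of all genes, and on TMM-scaled counts for 11 and 1. Measured against the floxed mean, the median member lay 1.68 higher in knockout replicate 1, 0.48 higher in replicate 2 and 0.51 higher in replicate 3 on the log2 scale. Without knockout replicate 1 the median was 0.55, with 22 higher and 10 lower.

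Itih4, the heavy chain of an inter-alpha-trypsin inhibitor, was the acute phase gene of smallest p. It stood at 511.56, 480.43 and 552.39 FPKM in the floxed livers and at 1126.93, 1159.57 and 957.07 FPKM in the knockout livers. Each group was tight, and the lowest knockout liver was well above the highest floxed liver (log2 difference 1.20, SE 0.27, edgeR adjusted p = 0.457). Fgl1, a fibrinogen-like protein secreted by hepatocytes, ran at 90.74, 102.49 and 86.81 FPKM in floxed and 1152.31, 184.76 and 386.61 FPKM in knockout livers. There was no overlap, and knockout replicate 1 was the highest (log2 difference 2.87, SE 0.68, adjusted p = 0.505). Lcn2, lipocalin-2, which binds bacterial iron carriers, was at 159.44, 151.67 and 45.80 against 797.17, 707.42 and 293.05 FPKM. Here too all knockout values were higher, with replicate 3 of each group the lowest of its group (log2 difference 2.57, SE 0.64, adjusted p = 0.564).

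Several other secreted proteins showed the same separation in FPKM. Lrg1, a leucine-rich glycoprotein, stood at 496.74, 415.58 and 603.51 against 2109.27, 999.76 and 674.45 FPKM (log2 difference 1.52). Serpina3n, a protease inhibitor, stood at 259.46, 229.25 and 242.96 against 726.27, 575.44 and 325.77 FPKM (1.33). The fibrinogen chain Fgb was at 1359.86, 1434.31 and 1801.60 against 3397.42, 3366.12 and 1815.34 FPKM. In these 3 genes knockout replicate 3 was the knockout library nearest to the floxed group, and for Fgb it exceeded floxed replicate 3 by little (log2 difference 1.04, SE 0.36). On TMM-scaled counts Fgb overlapped: knockout replicate 3 had 49185 counts at a factor of 1.118, and floxed replicate 3 had 49309 at 0.951. Mt1, a metallothionein that binds zinc and copper, was at 55.90, 47.12 and 11.21 against 376.96, 145.49 and 91.71 FPKM (log2 difference 2.73). Mt2 stood beside it at 32.23, 34.23 and 7.43 against 203.88, 75.96 and 39.93 FPKM. Floxed replicate 3 was the lowest library for both metallothioneins. The wider list of metal and iron handling genes gave 12 higher and 8 lower of 20; its median of 0.39 became -0.01 without knockout replicate 2.

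The serum amyloid genes did not separate the groups. Saa1, a lipoprotein-bound acute phase protein, was at 241.55, 263.55 and 138.29 FPKM in floxed and 3482.61, 21.83 and 419.14 FPKM in knockout livers. Saa2 was at 147.15, 155.33 and 67.17 against 1825.93, 7.41 and 169.62 FPKM, and Orm2, an orosomucoid, at 60.32, 55.27 and 45.15 against 754.53, 8.53 and 91.24 FPKM. In all 3 genes knockout replicate 1 was the highest of the 6 libraries and knockout replicate 2 the lowest. The Saa and Orm genes have close copies, between which reads may be split. Hamp, which encodes the iron hormone hepcidin, was the 1 of the 4 lower members whose groups did not overlap. Its values were 562.34, 554.12 and 1384.55 FPKM in floxed and 11.04, 150.80 and 244.22 FPKM in knockout livers, without overlap (log2 difference -2.69, SE 0.86, edgeR adjusted p = 0.598). Hamp2, its copy, overlapped between the groups, at 50.14, 45.51 and 17.95 against 8.67, 7.37 and 87.01 FPKM.

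The IL-6 and STAT3 signalling genes themselves were measured at lower levels. Of 19 tested members 15 were higher and 4 lower, with a median log2 difference of 0.47, or 0.24 without knockout replicate 1. For 4 members, all higher, the groups did not overlap, against 2.25% of all genes in that direction (4 members on TMM-scaled counts). Stat3, the transcription factor of the pathway, was at 17.38, 17.59 and 14.45 FPKM in floxed and 25.19, 25.84 and 26.50 FPKM in knockout livers. The 3 knockout livers were close to each other and above all floxed livers (log2 difference 0.79, SE 0.19, edgeR adjusted p = 0.507). Socs3, the feedback inhibitor that STAT3 induces, was at 2.13, 1.99 and 0.95 against 12.89, 4.80 and 3.44 FPKM (log2 difference 2.34, SE 0.60, adjusted p = 0.572). Bcl3, an NF-kB cofactor, was at 16.18, 14.54 and 15.05 against 36.63, 29.42 and 20.43 FPKM (1.08). Junb, a subunit of AP-1, was at 15.69, 15.29 and 9.85 against 45.22, 45.36 and 24.46 FPKM (1.68, SE 0.39, adjusted p = 0.505). These are the 4 members without overlap. Il6 was near the floor, at 0.12 FPKM in floxed replicate 1 and 0.06 in knockout replicate 3 and listed at 0 in the other 4 HF libraries. The receptor chain Il6ra and the shared chain Il6st overlapped, at 3.29, 4.20 and 4.16 against 5.90, 3.78 and 5.23 FPKM and at 15.67, 18.67 and 14.65 against 7.84, 13.38 and 18.96 FPKM.

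**Figure D2:**
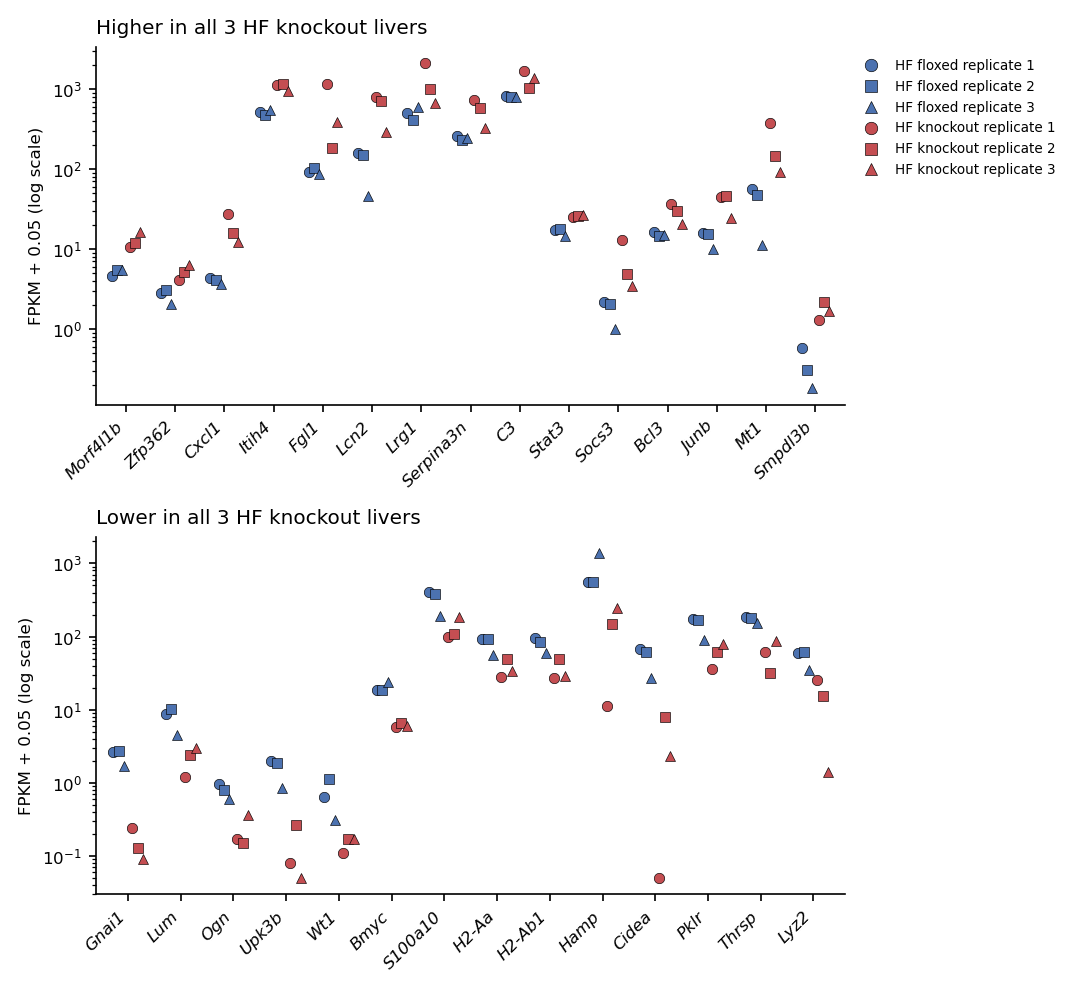
Points are FPKM plus 0.05 on a log axis in each of the 6 HF libraries, floxed and knockout in separate colours, for genes whose groups do not overlap, higher in knockout in one panel and lower in the other. Itih4 and Stat3 show tight groups, with Stat3 at 14.45 to 17.59 FPKM in floxed and 25.19 to 26.50 FPKM in knockout livers, while Fgl1 and Hamp are widely spread among the knockout livers.

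Since these genes lay in the same direction, the bases before their start sites were searched for the palindrome TTCNNNGAA, the core of the element that STAT factors bind. It reads the same on both strands. Sequences are from RefSeq promoters of build GRCm38.p6, which is not the build of the files, and matched 25 of the 32 acute phase genes. Of these, 7 (28%) held the palindrome within 250 bases before a start, namely Apcs, Itih4, Fga, Fgb, Hamp, Hamp2 and Steap4, against 8.13% of all 27025 genes in the table. Of 18 matched IL-6 and STAT3 genes, 3 (16.7%) held it, Socs3, Tnfrsf1a and Tnfrsf1b. Below are the 250 bases before the start of 3 genes that lay higher and of Hamp, which lay lower, with the match in capitals. Itih4 (chr14:30886226-30886475, plus strand) has it 51 to 43 bases before the start. Fgb (chr3:83049864-83050113, minus strand) has it 162 to 154 bases before, Socs3 (chr11:117969367-117969616, minus strand) 154 to 146 and Hamp (chr7:30944030-30944279, minus strand) 97 to 89. A match of letters is a description and says nothing of binding in these livers, and it was present both in genes that lay higher and in Hamp.
Itih4: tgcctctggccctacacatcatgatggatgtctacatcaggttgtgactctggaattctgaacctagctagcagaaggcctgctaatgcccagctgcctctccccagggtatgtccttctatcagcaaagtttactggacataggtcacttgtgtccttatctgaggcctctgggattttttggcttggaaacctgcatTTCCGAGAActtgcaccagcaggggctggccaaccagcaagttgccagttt
Fgb: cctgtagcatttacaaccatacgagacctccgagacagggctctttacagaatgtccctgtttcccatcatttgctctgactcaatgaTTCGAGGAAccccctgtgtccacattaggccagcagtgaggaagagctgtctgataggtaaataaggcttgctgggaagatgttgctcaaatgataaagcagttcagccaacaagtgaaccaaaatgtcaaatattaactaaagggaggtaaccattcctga
Socs3: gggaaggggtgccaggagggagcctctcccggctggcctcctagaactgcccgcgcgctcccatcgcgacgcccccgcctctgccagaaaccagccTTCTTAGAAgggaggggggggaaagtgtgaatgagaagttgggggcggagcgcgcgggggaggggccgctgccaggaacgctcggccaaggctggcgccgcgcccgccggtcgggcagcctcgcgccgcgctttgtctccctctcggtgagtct
Hamp: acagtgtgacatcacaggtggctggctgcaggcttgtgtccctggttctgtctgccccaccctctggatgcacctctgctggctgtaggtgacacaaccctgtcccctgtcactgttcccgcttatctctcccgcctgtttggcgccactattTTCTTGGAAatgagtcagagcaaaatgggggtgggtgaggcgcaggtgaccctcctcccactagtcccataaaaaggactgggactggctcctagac

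Complement and coagulation genes lay mostly on the same side. Of 33 tested members 27 were higher and 6 lower, with a median log2 difference of 0.57, or 0.30 without knockout replicate 1. The groups did not overlap for 11 members, all higher, against 2.25% of all genes in that direction (8 members on TMM-scaled counts). C3, the central complement component, was at 820.14, 796.50 and 807.71 FPKM in floxed and 1683.04, 1037.44 and 1398.54 FPKM in knockout livers. The floxed livers were nearly equal and all knockout livers were above them (log2 difference 0.92). Cfi, the protease that cuts C3b, was at 210.13, 216.55 and 208.82 against 304.02, 621.33 and 291.56 FPKM (1.04). The lectin-pathway genes Mbl1 and Mbl2 overlapped, at 138.97, 140.58 and 164.43 against 208.45, 33.06 and 122.81 FPKM and at 309.69, 334.76 and 215.39 against 300.49, 42.84 and 290.82 FPKM, with knockout replicate 2 the lowest in both. The hepatocyte markers, beside which these genes are read, gave 16 higher and 6 lower of 22, with summed FPKM of 65300 to 77300 in floxed and 87200 to 167000 in knockout libraries; their part in the result was not tested. Without knockout replicate 1 the hepatocyte markers gave 12 higher and 10 lower, and their median of 0.27 became 0.05; without floxed replicate 3 it was 0.57.

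Cxcl1, a chemokine that draws neutrophils, was at 4.30, 4.07 and 3.61 FPKM in floxed and 26.96, 15.71 and 12.02 FPKM in knockout livers. All 3 knockout livers were above all floxed livers (log2 difference 2.39, SE 0.46, edgeR adjusted p = 0.457). Other cytokines and chemokines were mixed, with 12 of 19 tested higher and 7 lower and a median of 0.45. That median was 0.77 without floxed replicate 2 and 0.31 without floxed replicate 3. It was 0.19 with floxed replicate 3 and knockout replicate 1 left out together. Tnf was at 0.24, 0.54 and 0.15 against 0.46, 0.04 and 0.63 FPKM, and Il1b at 0.99, 1.19 and 0.28 against 3.80, 0.62 and 4.64 FPKM. Cxcl10, an interferon-induced chemokine, was at 5.44, 8.91 and 2.45 against 2.79, 4.66 and 6.97 FPKM. These 3 genes overlapped between the groups, and Cxcl1 was the one member of its list without overlap, against 2.25% of all genes higher. Interferon-stimulated genes gave 13 higher and 19 lower of 32 with a median of -0.08, which was 0.13, 0.00 and -0.29 without floxed replicates 1, 2 and 3, and -0.14 and -0.12 without knockout replicates 1 and 2.

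Neutrophil markers were highest in knockout replicate 3 for most of the list. Measured against the floxed mean, the median tested marker lay 2.03, 1.41 and 4.92 higher in knockout replicates 1, 2 and 3 on the log2 scale. For 5 of 8 (Ngp, Ltf, Cxcr2, Lcn2 and Prtn3) the groups did not overlap, all higher, against 2.25% of all genes in that direction. S100a8, a subunit of calprotectin, was at 2.56, 3.32 and 1.27 FPKM in floxed and 2.55, 0.93 and 176.38 FPKM in knockout livers. S100a9, its partner, was at 2.42, 2.96 and 1.40 against 5.62, 2.35 and 187.42 FPKM, and the granule gene Ngp at 0.11, 0.05 and 0.00 against 1.52, 0.55 and 82.26 FPKM. Knockout replicate 3 stood far above the other 5 HF libraries in each. The same library held Ly6g, the defining surface marker of mouse neutrophils, at 1.13 FPKM, and Ly6g was listed at 0 in the 5 others. All 8 neutrophil markers that passed the count filter, of 17 in the files, were higher, with a median of 4.74, or 2.03 without knockout replicate 3. A marker near 0 in the floxed livers could pass that filter through the knockout group, where it was higher. Neither this count nor that of the markers without overlap therefore gives support to a direction. Summed over the 17 markers, FPKM was 166, 160 and 50.5 in floxed and 850, 716 and 848 in knockout libraries, but in knockout replicates 1 and 2 most of it was Lcn2, which hepatocytes also make. Prtn3, proteinase 3 of neutrophil granules, was instead highest in knockout replicate 1, at 0.13, 0.20 and 0.59 FPKM in floxed and 37.99, 2.94 and 5.88 FPKM in knockout livers (log2 difference 5.90, SE 1.25).

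Most MHC class II presentation genes were lower in the knockout livers. Of 9 tested members, 8 were lower and 1 higher, with a median log2 difference of -0.68 beside 0.03 over all genes. The groups did not overlap for 2, both lower, against 7.08% of all genes in that direction (2 members on TMM-scaled counts). The median was -1.11 without knockout replicate 2. H2-Ab1, the beta chain of the I-A molecule that shows peptides to helper T cells, was at 96.59, 83.35 and 59.29 FPKM in floxed and 27.15, 49.17 and 29.11 FPKM in knockout livers. The alpha chain H2-Aa was at 93.07, 92.25 and 55.60 against 27.75, 49.57 and 34.21 FPKM. Both chains separated the groups, with floxed replicate 3 the nearest to the knockout livers (log2 differences -1.05 for H2-Ab1 and -0.98, SE 0.33, edgeR adjusted p = 0.598 for H2-Aa). H2-Eb1 at 43.29, 37.60 and 24.04 against 11.04, 27.82 and 12.33 FPKM (-0.91) and the invariant chain Cd74 at 232.42, 203.53 and 135.05 against 73.50, 151.50 and 81.78 FPKM (-0.77) overlapped through knockout replicate 2. Ciita, the coactivator that these genes need, was low and overlapped, at 0.62, 0.59 and 0.29 against 0.11, 0.52 and 0.25 FPKM. Ctss, the protease that trims the invariant chain, is counted among the 8 lower members, but gave a log2 difference of -0.00 and did not follow the others. H2-DMb2 was listed at 0 in all 6 libraries.

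Class II promoters are known for a Y box, whose core is CCAAT or, on the other strand, ATTGG. Within 250 bases before a start, 8 of 9 matched class II genes of the 12 listed (88.9%) held one. The share was 37.5% of all genes in the table and 40.6% of the matched genes tested. Among the other lists searched it was 12% for acute phase, 20.8% for complement and coagulation, and 50% for IL-6 and STAT3 genes. The core is short and common, so a match alone says little. The stretches of H2-Aa (chr17:34287824-34288073, minus strand, ATTGG 48 to 44 bases before the start) and H2-Eb1 (chr17:34305617-34305866, plus strand, ATTGG at 59 to 55 and CCAAT at 35 to 31) show it in capitals, in the same RefSeq build GRCm38.p6.
H2-Aa: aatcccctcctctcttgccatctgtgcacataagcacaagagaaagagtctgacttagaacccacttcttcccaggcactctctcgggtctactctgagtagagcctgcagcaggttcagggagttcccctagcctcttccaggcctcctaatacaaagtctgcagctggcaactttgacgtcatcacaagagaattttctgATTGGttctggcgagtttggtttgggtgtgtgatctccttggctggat
H2-Eb1: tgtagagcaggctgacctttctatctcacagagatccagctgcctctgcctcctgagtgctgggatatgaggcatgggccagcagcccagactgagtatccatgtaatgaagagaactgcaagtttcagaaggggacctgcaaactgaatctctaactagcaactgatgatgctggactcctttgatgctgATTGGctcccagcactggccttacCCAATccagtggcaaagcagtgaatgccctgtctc

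Most extracellular matrix genes were lower. Of 42 tested 33 were lower and 9 higher, with a median of -0.51, or -0.15 without knockout replicate 1. The groups did not overlap for 6 lower and 2 higher members, against 7.08% and 2.25% of all genes (7 and 2 members on TMM-scaled counts). Lum, the collagen-binding proteoglycan lumican, was at 8.71, 10.28 and 4.41 FPKM in floxed and 1.17, 2.39 and 2.97 FPKM in knockout livers. All knockout livers were below all floxed livers (log2 difference -1.73, SE 0.33, edgeR adjusted p = 0.457). Ogn, a related proteoglycan, was at 0.93, 0.74 and 0.56 against 0.12, 0.10 and 0.32 FPKM (-1.93). The fibrillar collagen Col1a1 was at 12.11, 11.17 and 2.95 against 0.83, 8.93 and 6.24 FPKM, and Col3a1 at 17.58, 19.33 and 5.43 against 1.68, 16.84 and 12.07 FPKM. Unlike the proteoglycans, both collagens overlapped, with knockout replicate 1 the lowest library. Fn1, fibronectin, which hepatocytes also secrete, lay on the other side at 149.61, 162.10 and 148.61 against 196.21, 396.81 and 206.88 FPKM.

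Wt1 and Upk3b, both known in the mesothelium that covers the liver, were low in every library. Upk3b was at 1.97, 1.83 and 0.80 FPKM in floxed and 0.03, 0.22 and 0.00 FPKM in knockout livers (log2 difference -4.01). Wt1 was at 0.60, 1.07 and 0.26 against 0.06, 0.12 and 0.12 FPKM (-2.49). In both genes the groups did not overlap. How much capsule each piece of liver held is not given, and its part in these values was not tested. Markers of stellate cells and fibroblasts were read beside the matrix genes: 14 of 17 were lower and 3 higher, with a median of -0.63. Among them Des, Hand2 and Tagln did not overlap, all lower, against 7.08% of all genes in that direction. Their summed FPKM was 212, 210 and 135 in floxed and 71.7, 108 and 178 in knockout libraries, and of the defining markers Lrat was at 3.35, 4.76 and 2.40 against 0.84, 0.95 and 4.10 FPKM. The 22 liver endothelial markers gave 10 higher and 12 lower, and 16 higher and 6 lower without knockout replicate 1; at the median member that library lay at -1.34 from the floxed mean on the log2 scale, with a sum of 44.9 FPKM against 109 to 170 in the 5 other HF libraries. Their part in the matrix result was not tested.

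**Figure D3:**
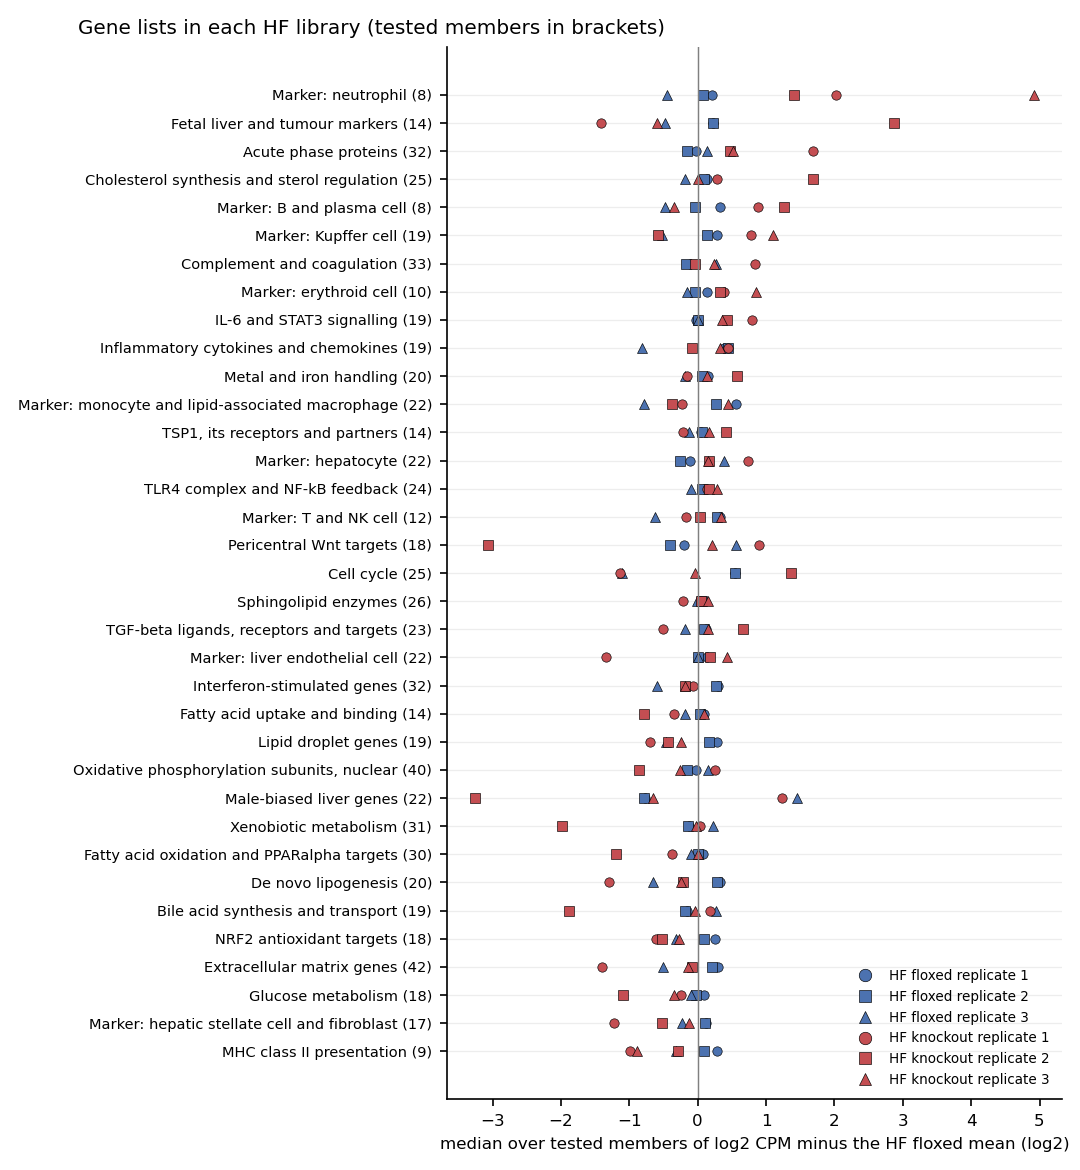
Each point is 1 HF library: the median over the tested members of a gene list of log2 CPM (TMM-scaled) minus the HF floxed mean, so 0 is the floxed level. Acute phase proteins lie at 1.68, 0.48 and 0.51 in the 3 knockout libraries, whereas pericentral and fetal lists are set apart by knockout replicate 2.

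Lipid droplet genes gave 15 lower and 4 higher of 19 with a median of -0.24, which became -0.53 without floxed replicate 3 and -0.59 without knockout replicate 2. Cidea, a droplet protein that enlarges lipid droplets in fatty hepatocytes, was at 68.17, 60.63 and 27.37 FPKM in floxed and at 7.89 and 2.32 FPKM in knockout replicates 2 and 3, and was listed at 0 in replicate 1. The groups did not overlap (log2 difference -3.86, SE 1.26, edgeR adjusted p = 0.598). Its relative Cidec was at 90.80, 88.30 and 9.68 against 0.22, 24.89 and 19.69 FPKM, and Plin2, the main coat protein of hepatocyte droplets, at 710.03, 684.45 and 353.93 against 208.68, 486.70 and 505.06 FPKM. Both overlapped through floxed replicate 3. De novo lipogenesis gave 13 lower and 7 higher of 20 with a median of -0.38, or -0.74 and -0.76 without those libraries. In it Thrsp, a lipogenic nuclear protein, was at 183.31, 181.48 and 155.52 against 60.68, 32.03 and 87.82 FPKM without overlap (-1.40). Fasn, fatty acid synthase, was at 115.23, 110.80 and 44.96 against 23.87, 63.21 and 52.65 FPKM, and Scd1, the desaturase, at 2677.42, 3082.27 and 521.03 against 73.01, 1262.14 and 1318.03 FPKM. For both enzymes floxed replicate 3 lay within the knockout range.

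Glucose metabolism was a more even group. Of 18 tested genes 14 were lower and 4 higher, with a median of -0.53, and the groups did not overlap for 9 members, all lower, against 7.08% of all genes in that direction (8 on TMM-scaled counts). Pklr, the liver pyruvate kinase, stood at 171.21, 170.25 and 90.17 FPKM in floxed and 35.75, 61.67 and 78.23 FPKM in knockout livers. Every knockout liver was lower for Pklr (log2 difference -1.19). The gluconeogenic enzyme G6pc, at 105.03, 103.31 and 119.03 against 74.09, 14.27 and 76.93 FPKM, and the glucose carrier Slc2a2, at 73.33, 90.45 and 94.02 against 42.78, 23.79 and 70.55 FPKM, lay the same way. Pck1 overlapped, at 356.77, 374.19 and 324.40 against 458.49, 53.46 and 217.86 FPKM.

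NRF2 antioxidant targets gave 14 lower and 4 higher of 18 with a median of -0.40, or -0.65 without knockout replicate 3. The groups did not overlap for 5 lower members, against 7.08% of all genes in that direction (6 members on TMM-scaled counts). Nqo1, a quinone reductase, was at 9.04, 9.08 and 3.85 FPKM in floxed and 2.84, 0.58 and 3.40 FPKM in knockout livers (log2 difference -1.50). Gstm1, a glutathione transferase, was at 2489.66, 2149.57 and 1600.25 against 929.08, 637.87 and 1552.16 FPKM. Osgin1 went the other way but overlapped, at 116.85, 104.67 and 56.06 against 153.45, 265.02 and 110.54 FPKM. Of 40 nuclear-encoded subunits of oxidative phosphorylation 38 were lower and 2 higher, yet by a median of -0.24. The groups did not overlap for 14 members, all lower, against 7.08% of all genes in that direction (7 members on TMM-scaled counts). Without knockout replicate 2 the list gave 20 higher and 20 lower with a median of 0.00. It gave 0 higher and 40 lower without knockout replicate 1, and 6 higher and 34 lower without knockout replicate 3. Fatty acid oxidation genes gave 26 lower and 4 higher of 30 with a median of -0.34. That median was -0.08 without knockout replicate 2 and -0.69 without knockout replicate 3.

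Cholesterol synthesis was higher at all 25 tested genes, with a median of 0.89, and rested on knockout replicate 2. In that library the median member lay 1.68 above the floxed mean on the log2 scale, against 0.29 and 0.00 in knockout replicates 1 and 3. Without it the median was 0.15, with 17 higher and 8 lower. Sqle, squalene epoxidase, was at 12.81, 14.13 and 3.68 FPKM in floxed and 12.85, 90.29 and 9.47 FPKM in knockout livers. That library was the highest, and the groups overlapped. They did not overlap for 2 members, Mvk and Msmo1, both higher, against 2.25% of all genes in that direction (3 members on TMM-scaled counts). Mvk, mevalonate kinase, was at 10.38, 7.18 and 7.90 against 13.52, 39.33 and 10.66 FPKM (log2 difference 1.42), and Msmo1, a sterol oxidase, at 41.48, 45.76 and 38.16 against 69.33, 140.04 and 58.39 FPKM (1.21).

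Knockout replicate 2 also stood apart in genes of liver zonation, sex and fetal life. Cyp1a2, a cytochrome of the cells around the central vein, was at 0.20 FPKM there against at least 70.16 in the other HF livers, and Cyp7a1, the rate-limiting enzyme of bile acid synthesis, was listed at 0 against at least 6.81. Glul, glutamine synthetase of the same zone, was at 10.97 FPKM and Cyp2e1 at 27.51 FPKM. Gpc3, a fetal and tumour-associated glypican, was at 101.49 FPKM against at most 0.89, and Afp, alpha-fetoprotein, at 29.98 FPKM against at most 0.61. Spp1, osteopontin, reached 743.15 FPKM and Tspan8 reached 280.45. At the median member, the fetal liver and tumour list lay at 2.87 above the floxed mean in this library but at -1.42 and -0.59 in knockout replicates 1 and 3. The pericentral list lay at -3.06 against 0.90 and 0.21, and male-biased genes at -3.26 against 1.23 and -0.65. Without this library the fetal median of 1.33 became -1.18, the male-biased median of -0.26 became 0.31 and the xenobiotic median of -0.32 became 0.21. The direction of the fetal median thus rested on this 1 library, while the directions of the male-biased and xenobiotic medians depended on other libraries too. The male-biased median was also 0.90 without floxed replicate 3 and 0.07 without knockout replicate 3, and the xenobiotic median 0.05 without floxed replicate 3.

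**Figure D4:**
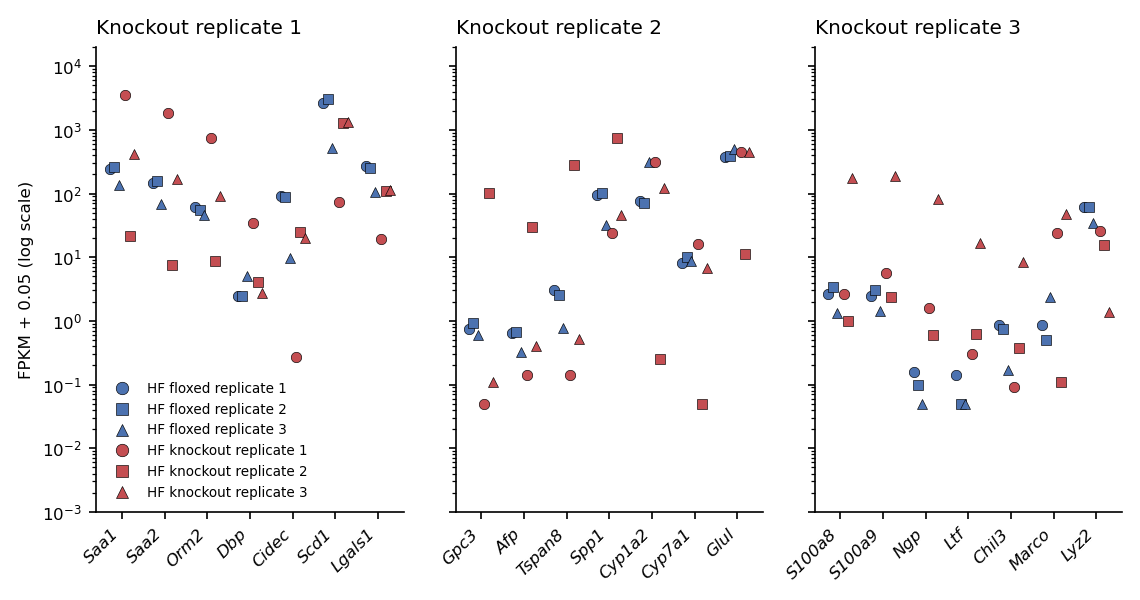
Points are FPKM plus 0.05 on a log axis in each of the 6 HF libraries for genes set apart by 1 knockout library, in 3 panels for replicates 1, 2 and 3. Gpc3 reaches 101.49 FPKM in knockout replicate 2 and S100a8 reaches 176.38 FPKM in knockout replicate 3.

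Knockout replicate 1 differed in the clock output gene Dbp, at 34.14 FPKM against 2.39 to 4.97 in the other 5 HF livers. The hour at which livers were taken is not given. Scd1 and Cidec were at their lowest there, at 73.01 and 0.22 FPKM, and so was Lgals1, galectin-1, at 19.41 FPKM. Mup7, a major urinary protein with many near-identical copies, was at 16.70, 19.42 and 16108.40 FPKM in floxed and 19968.51, 2.24 and 139.87 FPKM in knockout livers. Its high values fell in floxed replicate 3 and knockout replicate 1, the 2 libraries whose files are named in another form than the rest. Mup20, a member with a more distinct sequence, separated the groups at 8503.42, 8633.08 and 11330.39 against 3236.11, 1716.98 and 2616.76 FPKM (log2 difference -1.77).

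Morf4l1b had the smallest p among genes that lay higher and Gnai1 among those that lay lower. Morf4l1b, annotated as a relative of a chromatin-binding protein and so open to shared reads, was at 4.52, 5.38 and 5.37 FPKM in floxed and 10.39, 11.78 and 16.35 FPKM in knockout livers (log2 difference 1.43, SE 0.21, edgeR adjusted p = 0.157). Zfp362, a zinc finger protein, was at 2.80, 3.06 and 2.00 against 4.06, 5.03 and 6.30 FPKM (1.11, SE 0.18, adjusted p = 0.252). Gnai1, an inhibitory G protein subunit, was at 2.58, 2.70 and 1.68 against 0.19, 0.08 and 0.04 FPKM (-4.25, SE 0.59, adjusted p = 0.157). In none of the 3 did the groups overlap. Bmyc, a short relative of Myc, was at 18.36, 18.44 and 23.84 against 5.81, 6.63 and 5.86 FPKM (-1.62), and S100a10, an annexin partner, at 403.78, 377.78 and 191.95 against 98.75, 108.03 and 185.80 FPKM (-1.18). Bmyc showed a wide gap and S100a10 a narrow one, between floxed replicate 3 and knockout replicate 3.

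The genotype was also set against diet. The difference between knockout and floxed on HF minus that on LF was called by edgeR for 2 of 12587 genes (0.0159%), Gnai1 and Morf4l1b. With the HF floxed pair averaged to 1 sample 1 gene was called, with both near-identical pairs averaged 0 (smallest adjusted p 0.165), and with the replicate block 1. On LF, Gnai1 was at 0.26, 0.14 and 0.25 FPKM in floxed and 0.54, 1.39 and 1.06 FPKM in knockout livers, the opposite order to HF (log2 difference 2.01 on LF; difference between diets -6.26, SE 0.79, adjusted p = 0.0358). Morf4l1b on LF was at 15.66, 10.91 and 12.30 against 4.98, 4.81 and 3.90 FPKM, again the opposite of HF (-1.68 on LF, adjusted p = 0.0362; difference between diets 3.11, SE 0.30, adjusted p = 0.00452). For Morf4l1b the HF floxed and LF knockout livers had overlapping levels, as did the HF knockout and LF floxed livers. Acute phase proteins had a median of 0.22 on LF against 1.15 on HF, and cholesterol synthesis -0.62 against 0.89; these list differences between diets were not tested.

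**Figure D5:**
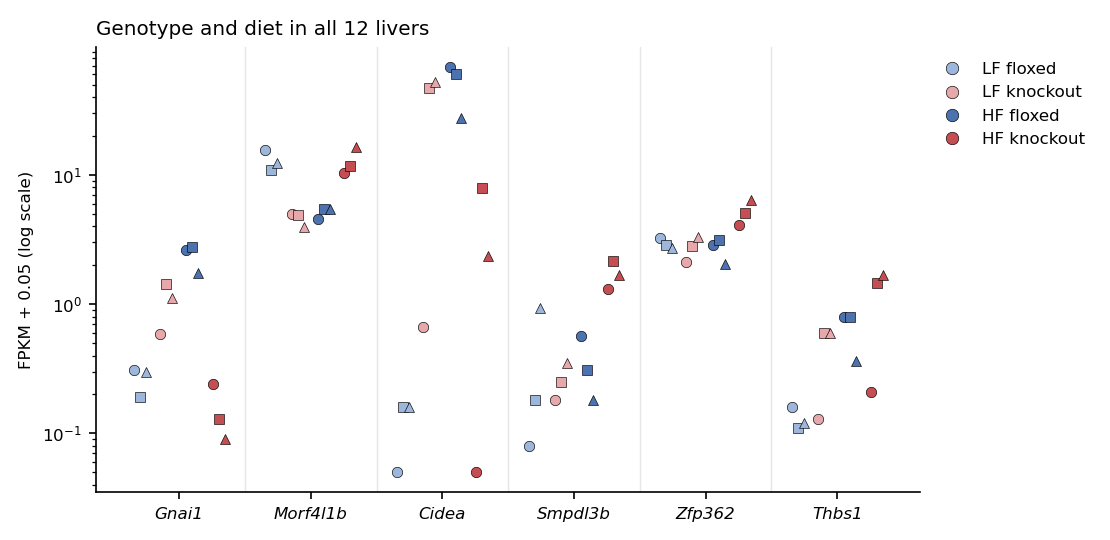
Points are FPKM plus 0.05 on a log axis in all 12 libraries, by diet and genotype, for 6 genes, with circles, squares and triangles for replicates 1, 2 and 3. Gnai1 runs from 1.68 to 2.70 FPKM in HF floxed and from 0.04 to 0.19 FPKM in HF knockout livers, and for Thbs1 the HF groups overlap.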

How the data were processed

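Liver RNA libraries were prepared by BGI, per the labels' protocols. The submitters' processing notes name build mm9, and no source used here gives the aligner or counter. The authors deposited, per library, the expected count (estimated count) of each gene, unscaled per the file headers. The FPKM in the same deposited files are scaled to gene length and depth per the file headers. Of the expected counts 87.0 to 88.1% were whole. Genes absent from a file (3825 from at least 1) were set to 0, and 1229 loci without a gene name (6.65 to 14.06% of counts in HF libraries) were left out. Rounded counts of 16239 named genes were filtered (filterByExpr, 12587 kept) and tested in R 4.3.3 using edgeR 4.0.16 (limma 3.58.1), with TMM factors and 4 group means over 12 libraries, Benjamini-Hochberg at 5%. Gene lists were described by counts and medians. Members, lists and tests were chosen with earlier results of these data known. Named genes were the 10 of smallest p and the 10 of largest difference without overlap per direction, the targets, and the 3 of smallest p per list, while other list members are given as levels or, where a paragraph needed them, with their difference. On simulated counts 14.9%, 88.1% and 93.9% of 2-, 4- and 8-fold changes were recovered over 12436 genes, with 3 false calls. The simulation gave all 4 groups the same spread per gene and changed only genes with mean counts of at least 10. The HF knockout libraries were more spread (52.8%) than the other groups, so these shares do not give the recovery in this comparison. Library totals were 16131506 to 16536016 counts. Alternatives are given at the end. A few genes named by this rule are not reported here.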

Additional observations from a re-analysis of the deposited data

Results flagged for a closer look

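Gnai1 had opposite genotype differences on the diets, HF minus LF being -6.26 as a log2 difference (SE 0.79, edgeR adjusted p = 0.0358). It was lower in all 3 knockout livers on HF, by a log2 difference of -4.25, and higher in all 3 on LF, by 2.01. Morf4l1b gave 3.11 for HF minus LF (SE 0.30, edgeR adjusted p = 0.00452). It was higher in all 3 knockout livers on HF, by 1.43, and lower in all 3 on LF, by -1.68. No cause was tested for either gene. Of these 2 calls, 1 was left with the HF floxed pair averaged to 1 sample or with the replicate block, and 0 with both near-identical pairs averaged (smallest edgeR adjusted p 0.165).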

How the results depend on the processing

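Against 0 genes called for the genotype on HF, DESeq2 1.42.0 called 69, voom with sample weights 1, limma on log2(FPKM + 1) without a filter 1, and the fit without HF floxed replicate 3 and HF knockout replicate 1 called 3. Leaving out 1 library gave 0 to 14, with 2 without HF knockout replicate 1 and 14 without HF knockout replicate 3. The other settings called 0. For the difference between diets, against 2 called, DESeq2 called 107, voom 28, the fit without HF floxed replicate 3 and HF knockout replicate 1 called 5, the averaged HF floxed pair 1, both near-identical pairs averaged 0, and unnamed loci kept 1; leaving out 1 library gave 1 to 17, with 10 without LF knockout replicate 1 and 17 without HF knockout replicate 3. The share without overlap, 9.33%, was 12.2% with the pair averaged, 40.1% without those 2 libraries, 11.7 to 26.2% leaving out 1 library, where fewer samples separate more easily, and 10.1% on TMM-scaled counts, a choice made after seeing the data. The cause was not tested for the rest.

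Same-numbered libraries of the HF groups correlated in their deviations at -0.301, 0.404 and -0.075, so the numbers do not pair them. The highest value of any floxed and knockout pair was 0.55, for floxed replicate 3 and knockout replicate 1. These are the libraries whose files are named in another form, and the cause was not tested. The replicate block gave 0 calls for the genotype on HF and 1 for the difference between diets.

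The median over all genes was 0.03 by edgeR and -0.11 by limma on log2(FPKM + 1). On FPKM the IL-6 and STAT3 list gave 0.20, 0.21 and 0.22, TLR4 0.07 in each, sphingolipid enzymes -0.13 and -0.14, erythroid markers 0.21 and neutrophil markers 2.02, 2.36 and 2.51; MHC class II gave -1.08 by voom. Leaving out 1 library, list medians ranged from -1.11 to -0.51 for MHC class II, 2.03 to 5.31 for neutrophil, -0.01 to 0.50 for metal and iron, -1.18 to 1.82 for fetal and -0.38 to 0.81 for monocyte markers. Of 61 gene differences none reversed under any alternative run. Many of these genes were chosen for a small p or for groups without overlap, which makes a reversal unlikely from the start. This count therefore gives no support to a direction. Depth limits genes near 0 FPKM, such as Ly6g, Il6 and Upk3b.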

Other observations

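Immediate early genes, which answer stimuli within minutes, were mixed between the HF groups: 15 of 22 tested were higher and 7 lower, with a median log2 difference of 0.54 that became -0.02 without knockout replicate 2. Egr1, a zinc finger factor of this group, was at 6.25, 7.71 and 3.81 FPKM in floxed and 10.17, 52.68 and 18.49 FPKM in knockout livers, without overlap, and Zfp36, which destabilises cytokine messages, was at 45.44, 44.86 and 44.20 against 58.90, 71.25 and 48.78 FPKM. Jun lay the other way with overlap, at 22.05, 22.81 and 7.85 against 3.46, 7.99 and 11.02 FPKM.

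Cyp2a4, a female-biased cytochrome with a near-identical copy, was at 10.95, 11.64 and 0.23 FPKM in floxed and 0.15, 1119.66 and 80.22 FPKM in knockout livers. Of 10 tested erythroid markers 9 were higher and 1 lower, with summed FPKM of 1090 to 1480 in floxed and 1240 to 2290 in knockout libraries.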
